A study of Mus musculus with 10 samples.

Results

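A set of 48 genes whose products act in G2 and mitosis was followed in mouse embryonic telencephalon carrying a null or a missense allele of Polr1a, which encodes the catalytic core of the polymerase that transcribes ribosomal RNA genes. The genes were taken from a fixed list by symbol, and all 48 listed symbols were found among the 14796 named genes with expression values. Polr1a was not among the 48. The rule uses symbols only, but the list was drawn up with earlier results of these data known. The data are bulk RNA-seq of the telencephalon at embryonic day 12, from 10 samples in 4 groups. The sample titles carry 1 of 2 first numbers, which divide them into a null set of 2 wild-type and 2 null samples and a missense set of 3 wild-type samples and 3 with the missense allele, whose protein change is C1559F. Each mutant group had the wild types that share its first number as controls. The wild-type samples carry neither allele according to the labels. The labels do not state whether a mutant embryo had 1 or 2 mutant copies, what the first numbers stand for, or whether samples came from the same litter or from separate embryos. The p-values below therefore measure only the spread between these samples.

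In G2 a cell that has copied its DNA builds up cyclin B and CDK1, whose joint activity starts mitosis. The chromosomes then condense, kinetochores attach them to the spindle, a checkpoint delays anaphase until attachment is complete, and the anaphase-promoting complex destroys the cyclins to end mitosis. Transcription of these genes peaks together late in the cycle, driven by B-MYB and FOXM1 with the MuvB complex, and is held down by the DREAM complex, which binds the cell cycle genes homology region (CHR) of their promoters, often with NF-Y at nearby CCAAT boxes. In the telencephalon at this age the dividing cells are mainly the progenitors that line the ventricle, so these transcripts mark cycling progenitors.

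The promoters were searched for motifs that the choice of genes did not use. RefSeq windows on GRCm38.p6, from 250 bases before to 50 bases after the transcription start, were at hand for 40 of the 48 genes, in 43 windows, since a gene can have several starts. Ccna2, Cdc25c, Aurkb, Smc4, Cdca2, Tpx2, Dlgap5 and Kif20a had no entry. A CHR was searched as TTTGAA or TTCGAA and a CCAAT box as CCAAT, each on both strands. TTCGAA reads the same on both strands, and a CCAAT box can share its last letter with a TTTGAA. A CHR of either spelling was present in 35 windows (81.4%), against 13.7% of the windows of the tested genes and 19.2% of all 32851 windows. A CCAAT box was present in 34 windows (79.1%), against 37.4% of the windows of the tested genes. Both stood together in 30 windows (69.8%), against 5.66% of the windows of the tested genes. Other lists also held CCAAT boxes often, with 67.2% of the windows of other G2 and mitosis genes, 65.4% of those of S phase genes, 66.7% of those of progenitor markers and 77.8% of those of neuron markers. A CHR was in 61.2% of the windows of other G2 and mitosis genes, 15.4% of those of S phase genes, 22.2% of those of progenitor markers and 11.1% of those of neuron markers. TTTGAA was in 74.4% of the windows and TTCGAA in 11.6%, against 12% and 1.97% for the tested genes. Of the 47 CHR matches, 26 (55.3%) lay between 75 bases before and 25 bases after the start, compared with 25.4% of the matches in windows of tested genes. Such matches describe the letters only and do not show that a factor bound there.

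The promoters of 4 genes are printed because they belong to the genes with the smallest p-values against wild type that have an entry and may be shown, and they include one with neither motif. Capitals mark a CHR (TTTGAA or TTCGAA, or the reverse complement TTCAAA) or a CCAAT box (CCAAT, or ATTGG on the other strand), all coordinates are GRCm38.p6, and all 4 genes lie on the plus strand. Kif11 (chr19:37376132-37376431) has 1 CHR and 1 CCAAT box, both on the opposite strand. Psrc1 (chr3:108383554-108383853) has the TTCGAA form and 2 CCAAT boxes. Kif4 (chrX:100625815-100626114) has 1 TTTGAA and 2 CCAAT boxes, and Tacc3 (chr5:33657878-33658177) has neither motif.
Kif11: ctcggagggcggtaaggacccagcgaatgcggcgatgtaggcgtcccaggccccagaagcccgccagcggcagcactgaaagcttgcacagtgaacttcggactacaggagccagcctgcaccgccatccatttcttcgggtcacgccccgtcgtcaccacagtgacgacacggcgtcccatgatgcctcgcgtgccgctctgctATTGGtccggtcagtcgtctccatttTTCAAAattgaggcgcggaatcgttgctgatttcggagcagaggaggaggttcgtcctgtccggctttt
Psrc1: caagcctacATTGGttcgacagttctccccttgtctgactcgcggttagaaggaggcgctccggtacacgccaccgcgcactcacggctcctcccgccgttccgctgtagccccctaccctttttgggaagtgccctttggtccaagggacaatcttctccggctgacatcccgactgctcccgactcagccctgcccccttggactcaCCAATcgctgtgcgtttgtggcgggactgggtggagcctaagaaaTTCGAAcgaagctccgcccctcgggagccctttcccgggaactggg
Kif4: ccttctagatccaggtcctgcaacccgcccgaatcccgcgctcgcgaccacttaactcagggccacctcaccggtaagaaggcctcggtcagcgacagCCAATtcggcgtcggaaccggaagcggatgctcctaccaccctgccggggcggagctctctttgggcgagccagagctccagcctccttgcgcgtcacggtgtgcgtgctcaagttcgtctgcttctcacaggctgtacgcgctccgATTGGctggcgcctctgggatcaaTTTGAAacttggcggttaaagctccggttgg
Tacc3: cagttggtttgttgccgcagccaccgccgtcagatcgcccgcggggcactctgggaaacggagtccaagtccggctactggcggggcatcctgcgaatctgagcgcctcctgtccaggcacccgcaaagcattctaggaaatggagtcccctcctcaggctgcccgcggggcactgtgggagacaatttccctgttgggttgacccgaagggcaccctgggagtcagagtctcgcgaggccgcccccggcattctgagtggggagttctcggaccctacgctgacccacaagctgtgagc

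The values are the authors' log2 levels on a scale like that of log2 CPM (reads scaled to a common total): back-transformed, each sample summed to between 1000453 and 1000891. Sequencing depth is therefore unknown, and no counting error can be given. The totals do not show whether levels were divided by transcript length, so the level of a single gene is compared between samples and not with that of another gene. The 10 telencephalon markers checked were all present, the lowest at 4.87 in any sample. In null samples Dlx1 and Dlx2, which encode homeobox factors of ventral telencephalic progenitors, fell by 1.38 (SE 0.10, limma adjusted p = 0.000369) and fell by 1.68 (SE 0.20, limma adjusted p = 0.0128) on the log2 scale. Both calls used a spread estimated from all 10 samples. With the null-set samples alone, 0 of all genes passed the test in this comparison, against 24 in the main fit. Of the 10 markers, 7 were lower in null (median -0.35) and 7 in missense (median -0.17). Their summed level ran from 1889 to 2144 in wild type and from 1358 to 1619 in null, and from 1861 to 2025 in wild type and from 1524 to 1780 in missense. Their part in the values below was not tested. Polr1a itself was at 5.38 and 5.38 in the null-set wild types and at 4.99 and 4.82 in the null samples, a log2 difference of -0.48 (SE 0.20, limma adjusted p = 0.563). In the missense comparison it differed by -0.08 (SE 0.16, limma adjusted p = 0.964).

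The first question is whether the null allele went with a different level of these genes. None of the 48 passed the test in null against wild type (limma, adjusted p under 0.05 over all genes), where 0.162% of all genes did. At an unadjusted p under 0.05, 1 of the 48 was higher and 2 were lower, against 5.04% of all genes higher and 3.28% lower. Of the 48, 18 were higher in null and 30 lower, with a median log2 difference of -0.03, where 54.62% of all genes were higher and the median was 0.03. With samples centred on their medians 13 were higher, and with quantile-normalized samples 21. The differences ran from -0.40 to 0.55 and their median size was 0.08, against 0.18 for all genes. For 39 of the 48 the 95% interval lay within 0.5 on the log2 scale (1.41-fold) of no difference in either direction, and for 46 within 1 (2-fold), while 31.04% of all genes had an interval within 0.5. The median level of the 48 was 6.80, against 4.76 for all genes, and the part of level in these sizes and intervals was not tested. In bulk tissue, fewer cells of a type and less RNA per cell cannot be told apart.

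**Figure D1:**
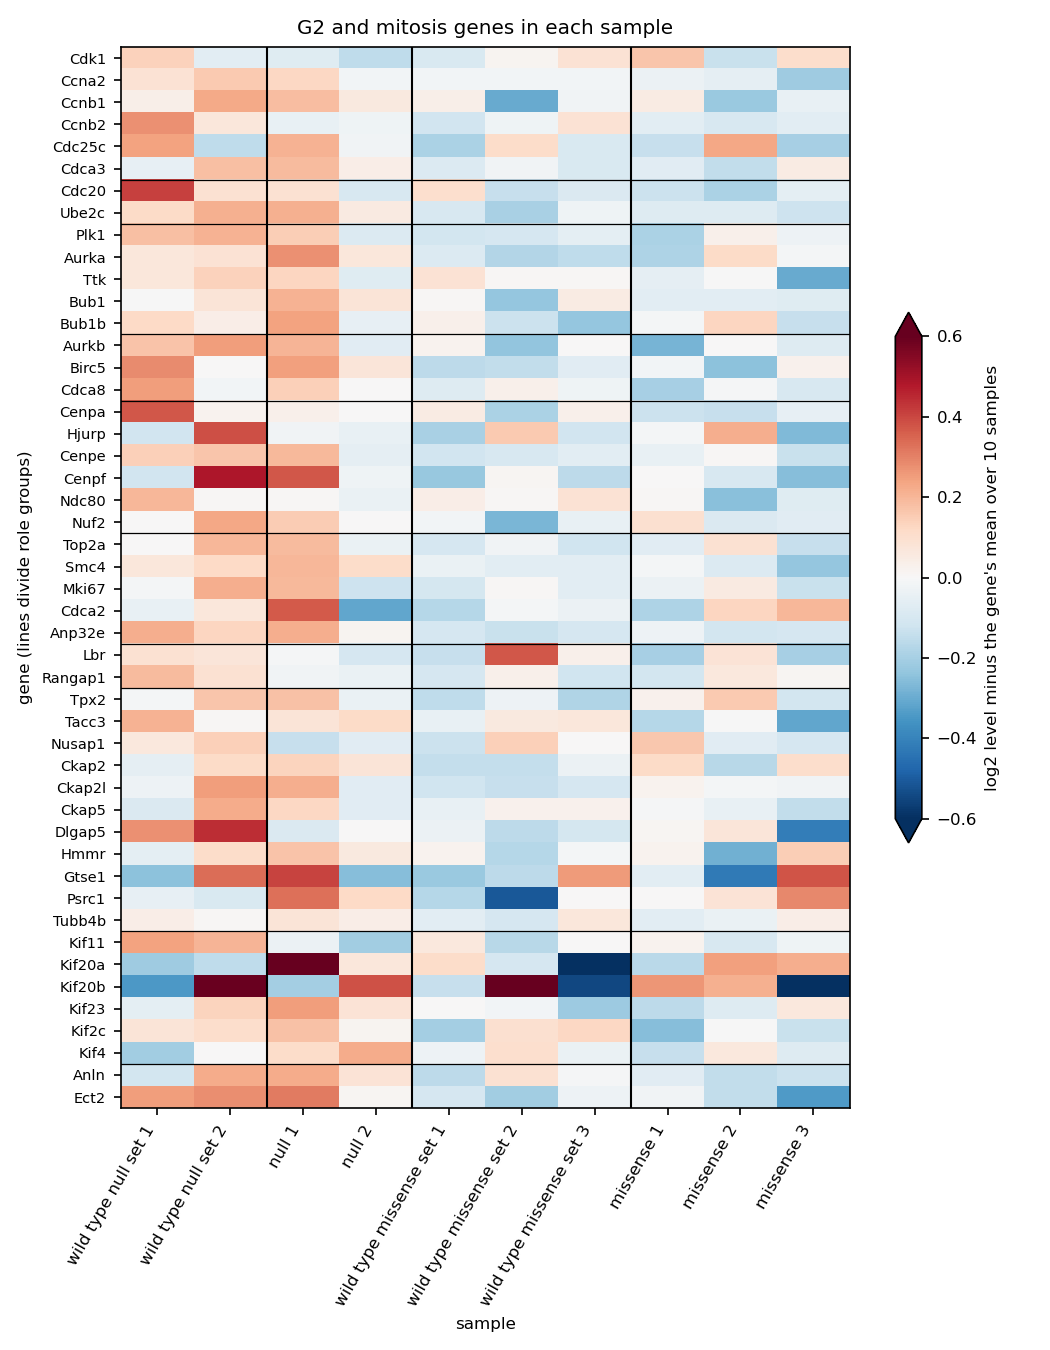
Level of each of the 48 genes in each of the 10 samples, as the log2 value minus the gene's mean over all samples, with genes ordered by role and samples by group. No gene passed the test in any comparison, and 46 of the 48 are lower on average in the missense-set wild types than in those of the other set.

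That small median rests on which null sample is used. Null 1 was higher than null 2 for 42 of the 48 genes, with a median difference of -0.16 for null 2 minus null 1, while 50.59% of all genes were higher in null 2. Without null 1 the median of the 48 was -0.133, and without null 2 it was 0.058 with 33 genes higher. Without null-set wild type 1 it was -0.081, and without wild type 2 it was 0.023. The mean log2 level of the 48 was 7.01 and 7.09 in the wild types and 7.10 and 6.94 in the null samples, so the null samples lay on either side of their controls.

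Among the genes of the CDK1 engine, Cdk1 encodes the kinase that drives entry into mitosis. Cdk1 was at 6.95 and 6.75 in wild type and at 6.74 and 6.66 in null, with a log2 difference of -0.15 (95% interval -0.43 to 0.12). Both null samples lay below both wild types, and the interval holds 0. Of all genes, 14.81% lay wholly below wild type in this comparison and 22.91% wholly above. Ccnb2, which encodes a B-type cyclin, was at 6.32 and 6.11 in wild type and at 6.0 and 6.02 in null (log2 difference -0.21, SE 0.12). A pseudogene of it, Ccnb2-ps, has expression values of its own, and whether reads were split between them was not tested. Of the 6 genes of this role 2 were higher and 4 lower, with a median of -0.04 and a range of -0.21 to 0.04. The other members are Ccna2 and Ccnb1, which encode cyclins, Cdc25c, which encodes the phosphatase that activates CDK1, and Cdca3, which encodes a trigger of mitotic entry.

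Cdc20 and Ube2c encode the activator and the ubiquitin-conjugating enzyme of the anaphase-promoting complex. Cdc20 was at 7.58 and 7.26 in wild type and at 7.26 and 7.07 in null, a log2 difference of -0.25 (SE 0.13, unadjusted p = 0.0757, limma adjusted p = 0.665). The groups met at 7.26. Cdc20 overlaps Elovl1 on the opposite strand by 53 exon bases, and since the strand used in counting is not given in the sources used here, reads of the 2 genes cannot be told apart there. Elovl1 had a log2 difference of 0.12 in the null comparison.

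Of the mitotic and checkpoint kinases, Plk1 drives centrosome maturation and mitotic entry. Plk1 was at 6.95 and 6.98 in wild type and at 6.92 and 6.69 in null (log2 difference -0.16, 95% interval -0.41 to 0.09). One null sample lay just under the wild types and the other well under them. The 5 genes of this role, with Aurka, Ttk, Bub1 and Bub1b, had 3 higher and 2 lower and a median of 0.01. The chromosomal passenger complex (Aurkb, Birc5 and Cdca8), which corrects faulty attachments, had a median of -0.05, with 1 of 3 higher.

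All 6 centromere and kinetochore genes were lower in null, as were 45.3% of all genes. The 6 had a median of -0.10 and a range of -0.18 to -0.01. None of the 6 passed the test, and with quantile-normalized samples 1 was higher. They are Cenpa, the centromeric histone, Hjurp, its chaperone, Cenpe and Cenpf, which bind the outer kinetochore, and Ndc80 and Nuf2, which hold microtubules. The 5 chromosome structure genes had a median of -0.03. Top2a, the topoisomerase that untangles sister chromatids, was at 9.58 and 9.78 in wild type and at 9.77 and 9.54 in null (log2 difference -0.03, 95% interval -0.27 to 0.22). Mki67, which encodes the Ki-67 coat of mitotic chromosomes, was at 9.60 and 9.83 in wild type and at 9.81 and 9.49 in null (log2 difference -0.06, 95% interval -0.33 to 0.20). In both genes the groups overlapped and null 2 was the lowest of the 4 samples.

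Both nuclear envelope and transport genes were lower in null, with a median of -0.15, the lowest of any role. Rangap1, which encodes the activator of the Ran GTPase, was at 8.26 and 8.16 in wild type and at 8.05 and 8.03 in null (log2 difference -0.17, SE 0.09). Lbr, which encodes the lamin B receptor of the inner nuclear membrane, was at 7.08 and 7.06 in wild type and at 6.98 and 6.89 in null. In both genes the null samples lay wholly below wild type, as for 14.81% of all genes, and neither passed the test.

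The widest differences came from spindle and kinesin genes. Kif11, the motor that pushes spindle poles apart, was at 8.03 and 7.99 in wild type and at 7.75 and 7.58 in null. Both null samples were lower than both wild types, and the log2 difference was -0.35 (SE 0.10, 95% interval -0.57 to -0.12, unadjusted p = 0.00654, limma adjusted p = 0.344). The missense-set wild types were at 7.85, 7.62 and 7.79 and the missense samples at 7.81, 7.69 and 7.76. Null 2 was the lowest of all 10 samples, null 1 lay within the range of the missense set, and the null-set wild types were the highest of all 10 samples for Kif11.

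Dlgap5, which stabilises spindle microtubules, was at 6.5 and 6.67 in wild type and at 6.14 and 6.23 in null, a log2 difference of -0.40 (SE 0.16, 95% interval -0.75 to -0.06, unadjusted p = 0.0265, limma adjusted p = 0.505). The groups did not overlap, and again the null-set wild types were the highest of all samples. Kif4, a chromosome-bound motor needed for condensation and the central spindle, was at 6.57 and 6.78 in wild type and at 6.89 and 7.0 in null. Its null samples were both higher, with a log2 difference of 0.27 (SE 0.11, 95% interval 0.02 to 0.52, unadjusted p = 0.0393, limma adjusted p = 0.570). Kif4 shares 683 exon bases with Pdzd11 on the opposite strand, and Pdzd11 differed by -0.06.

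Kif20a, a motor of the central spindle, was at 5.82 and 5.88 in wild type and at 6.70 and 6.10 in null (log2 difference 0.55, SE 0.26, 95% interval -0.02 to 1.12, unadjusted p = 0.0587, limma adjusted p = 0.624). Both null samples were higher, null 1 most of all, and without null 1 the difference was 0.248. Kif20a shares 977 exon bases with Cdc23 on the opposite strand, and Cdc23 differed by 0.13. Of the 11 spindle genes 5 were higher (median -0.01), of the 6 kinesins 4 were higher (median 0.07), and of the 2 cytokinesis genes, Anln and Ect2, 1 was higher. Over all 48, null samples lay wholly above wild type for 5 genes and wholly below for 9, where 22.91% of all genes lay wholly above and 14.81% wholly below.

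**Figure D2:**
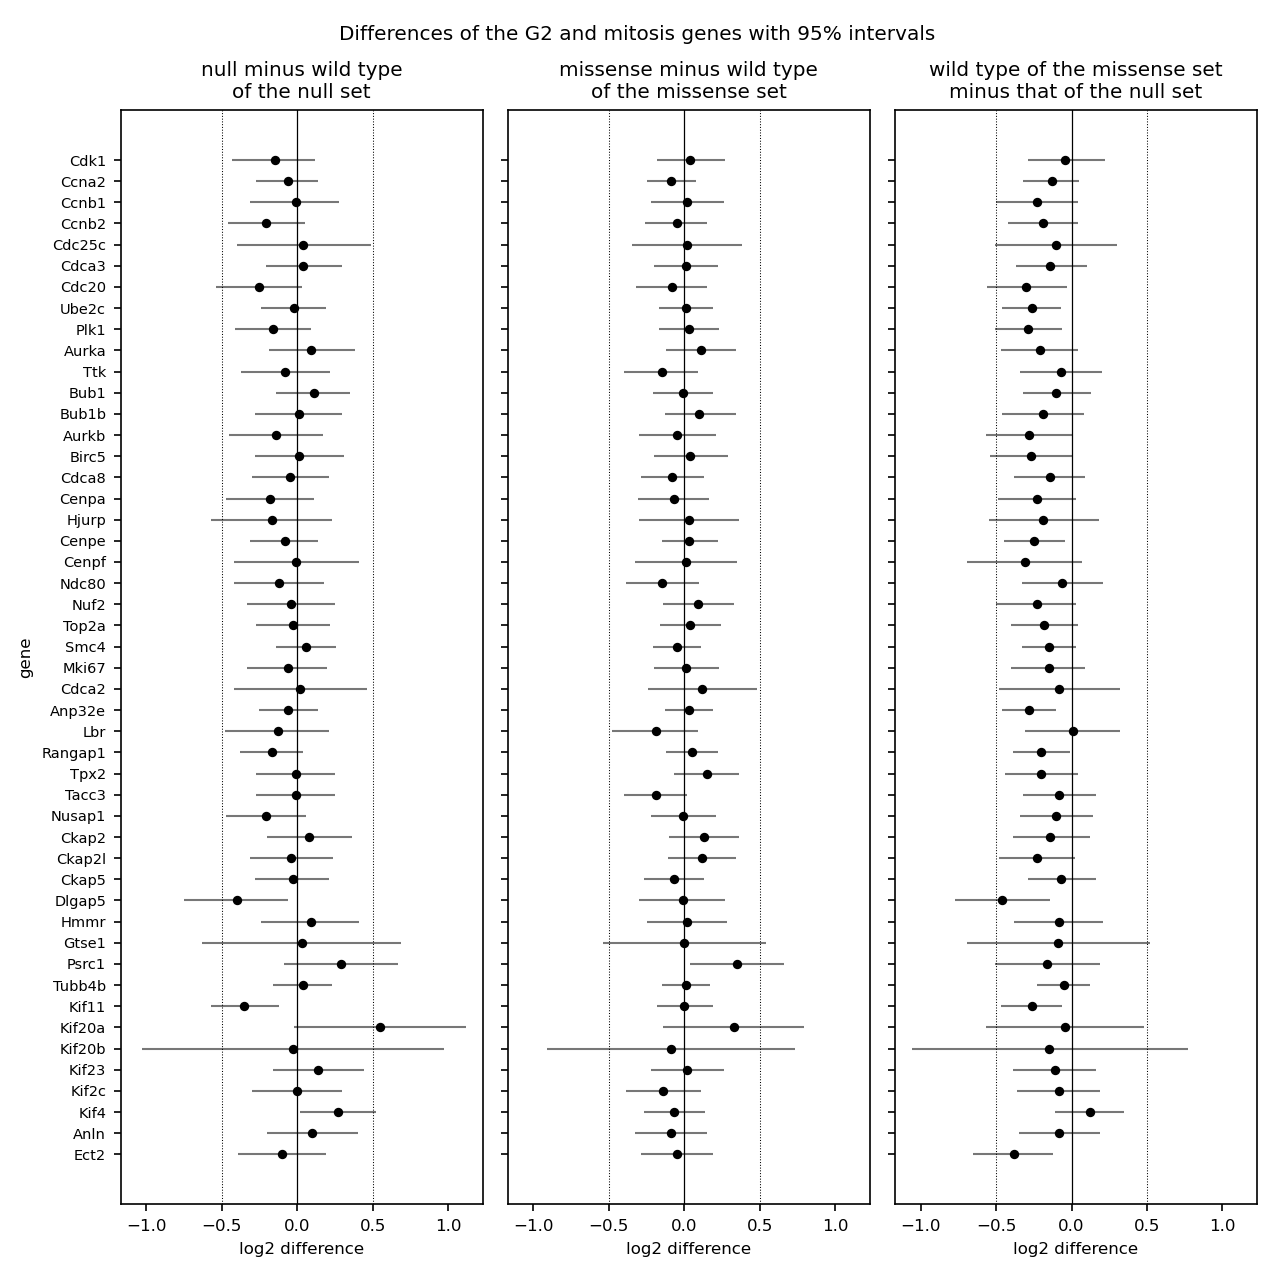
Log2 difference of each of the 48 genes from wild type of the same title number, with its 95% interval, in 3 panels (null, missense, and the wild types of the 2 sets). Dotted lines mark 0.5 in either direction. Kif11, Dlgap5 and Kif4 in null and Psrc1 in missense have intervals that leave out 0, as do 9 genes between the wild types, all lower in the missense set, and none passed the adjusted test.

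The missense allele was compared with its own wild types, 3 samples against 3. Again none of the 48 passed the test (limma, adjusted p under 0.05), where 0.0203% of all genes did. At an unadjusted p under 0.05, 1 of the 48 was higher and 0 lower, against 3.20% and 2.33% of all genes. Of the 48, 28 were higher and 20 lower, with a median of 0.01 and a median size of 0.05, where 54.01% of all genes were higher and the median size was 0.14. With samples centred on their medians 17 were higher, and with quantile-normalized samples 26. The differences ran from -0.19 to 0.35. For 44 of the 48 the 95% interval lay within 0.5, and for all 48 within 1, while 44.62% of all genes had an interval within 0.5.

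Psrc1, a microtubule-binding spindle protein whose gene is known as a p53 target, had the smallest p. It was at 5.65, 5.31 and 5.82 in wild type and at 5.82, 5.90 and 6.11 in missense. The lowest missense value and the highest wild-type value were the same to 2 decimals, and the log2 difference was 0.35 (SE 0.14, 95% interval 0.04 to 0.66, unadjusted p = 0.0299, limma adjusted p = 0.884). In null it was at 6.15 and 5.94 against 5.77 and 5.73, a log2 difference of 0.29, with both null samples higher.

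Tacc3, which strengthens spindle microtubules, was at 6.93, 7.03 and 7.04 in wild type and at 6.80, 6.97 and 6.66 in missense (log2 difference -0.19, SE 0.10, unadjusted p = 0.0748, limma adjusted p = 0.902). The groups overlapped. Tacc3 shares 289 exon bases with Tmem129 on the opposite strand, and Tmem129 differed by 0.09.

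Kif20a was at 6.14, 5.93 and 5.35 in wild type and at 5.87, 6.28 and 6.25 in missense, a log2 difference of 0.33 (SE 0.21), with the groups overlapping. Lbr was at 6.85, 7.36 and 7.02 in wild type and at 6.79, 7.07 and 6.79 in missense (log2 difference -0.19, SE 0.13). Tpx2, which activates Aurora A on the spindle, was at 7.68, 7.80 and 7.65 in wild type and at 7.86, 7.99 and 7.72 in missense (log2 difference 0.15, SE 0.10). Both sets overlapped between groups.

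The genes most often used as proliferation markers lay close to wild type. Mki67 was at 9.51, 9.62 and 9.55 in wild type and at 9.58, 9.67 and 9.48 in missense (log2 difference 0.01, 95% interval -0.20 to 0.23). Top2a was at 9.48, 9.56 and 9.46 in wild type and at 9.51, 9.67 and 9.44 in missense (log2 difference 0.04, 95% interval -0.16 to 0.24). For both genes the missense values spanned those of wild type.

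Cdk1 was at 6.72, 6.83 and 6.90 in wild type and at 6.98, 6.68 and 6.92 in missense, and Plk1 at 6.66, 6.67 and 6.71 in wild type and at 6.58, 6.80 and 6.74 in missense. Their log2 differences were 0.04 (95% interval -0.18 to 0.27) and 0.03 (95% interval -0.17 to 0.23), and the groups overlapped. By role, the medians ran from -0.07 for the nuclear envelope and cytokinesis genes to 0.03 for the kinases and the chromosome structure genes. Missense samples lay wholly above wild type for 2 genes and wholly below for 3, where 6.015% of all genes lay wholly above and 4.886% wholly below.

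Whether the alleles differed was tested as the null difference minus the missense difference. None of the 48 passed (limma, adjusted p under 0.05), where 0.0135% of all genes did, and at an unadjusted p under 0.05 there was 1 in each direction, against 2.22% of all genes higher and 1.91% lower. Kif11 had a difference of -0.35 (SE 0.13, 95% interval -0.64 to -0.06, unadjusted p = 0.0238, limma adjusted p = 1), and Kif4 one of 0.33 (SE 0.15, 95% interval 0.01 to 0.66, unadjusted p = 0.0459, limma adjusted p = 1). The median over the 48 was -0.03, and for 26 of them the interval lay within 0.5.

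**Figure D3:**
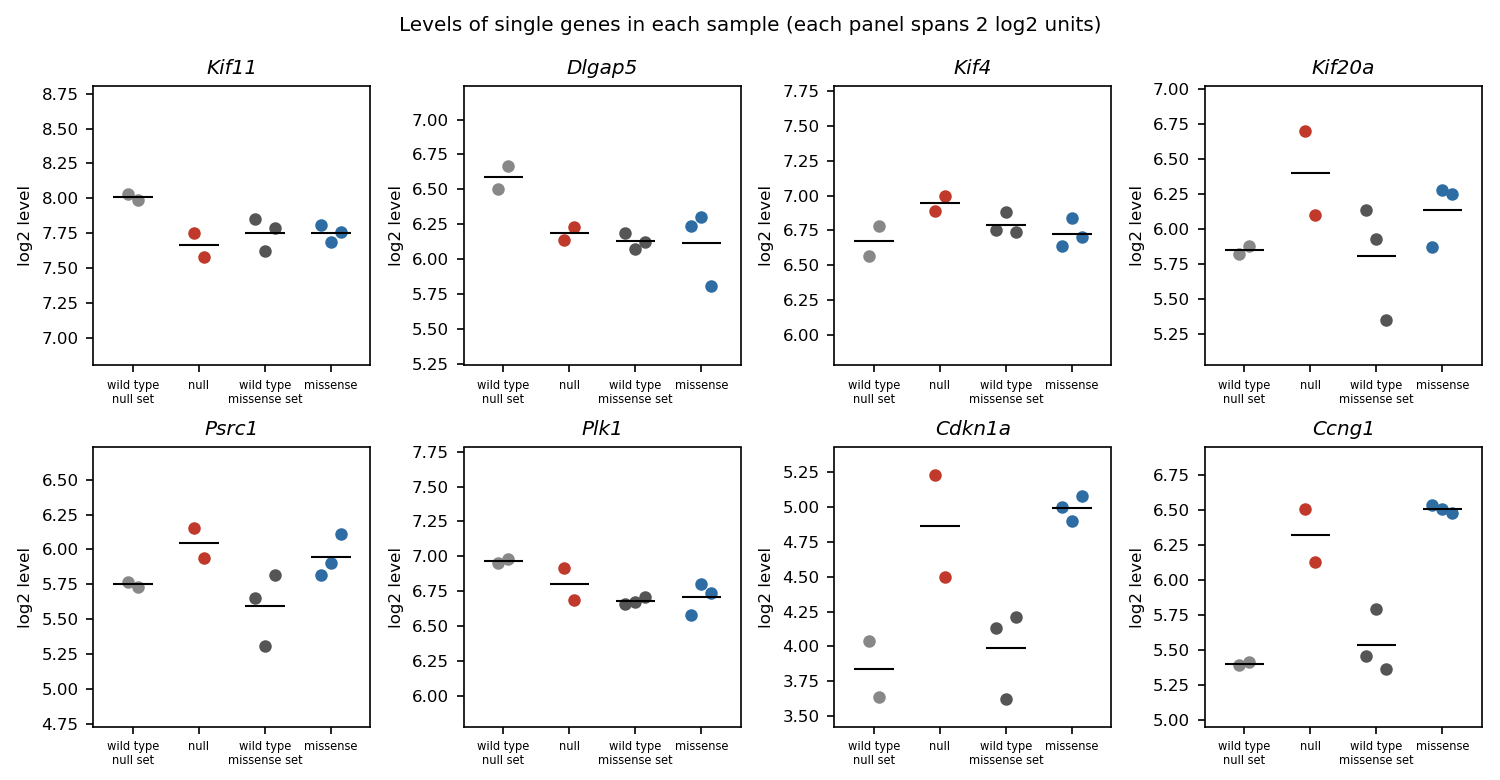
Log2 level in each sample of Kif11, Dlgap5, Kif4, Kif20a, Psrc1 and Plk1 and of the p53 targets Cdkn1a and Ccng1, by group, with a bar at each group mean and each panel spanning 2 log2 units. Kif11 and Dlgap5 are highest in the 2 null-set wild types, and every mutant sample lies above its wild types for Cdkn1a and Ccng1.

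The wild types of the 2 sets carry no mutant allele and show how far these genes differ without one. None passed the test (limma, adjusted p under 0.05), where 0.0946% of all genes did. At an unadjusted p under 0.05, 9 of the 48 were lower in the missense set and 0 higher, against 2.43% of all genes lower and 4.94% higher. In all, 46 of the 48 were lower and 2 higher, with a median of -0.15, where 53.33% of all genes were higher and the median was 0.02. For 18 of the 48 every missense-set wild type lay below every null-set wild type, and for 0 above, against 9.759% and 13.67% of all genes. The median without null-set wild type 2 was -0.114, and without wild type 1 it was -0.193. What else differs between the sets cannot be told apart from this.

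Anp32e, a histone chaperone that removes H2A.Z, was at 8.92 and 8.83 in the null set and at 8.60, 8.57 and 8.60 in the missense set (log2 difference -0.28, SE 0.08, unadjusted p = 0.00517, limma adjusted p = 0.481). Ect2, which activates RhoA for cytokinesis, was at 7.30 and 7.33 in the null set and at 6.95, 6.84 and 7.02 in the missense set (log2 difference -0.38, SE 0.12, unadjusted p = 0.00905, limma adjusted p = 0.510). For both genes the wild types of the sets did not overlap.

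Dlgap5 was at 6.19, 6.07 and 6.12 in the missense set (log2 difference -0.46, SE 0.14, unadjusted p = 0.00881, limma adjusted p = 0.510). Ube2c was at 7.45 and 7.55 in the null set and at 7.24, 7.14 and 7.31 in the missense set (log2 difference -0.26, SE 0.09, unadjusted p = 0.0139, limma adjusted p = 0.532), and Plk1 differed by -0.29 (SE 0.10, unadjusted p = 0.0170, limma adjusted p = 0.547). All 3 were lower in every missense-set wild type. Ube2c shares 144 exon bases with Tnnc2 and Plk1 shares 156 with Gm44985, both on the opposite strand. Tnnc2 and Gm44985 have no values here. The null comparison uses the null-set wild types as its control, so a difference there and one here share those 2 samples.

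Genes differed in how steady they were. Over the 48 the median SD within groups was 0.12, against 0.22 for all genes. The 48 had a median level of 6.80, against 4.76 for all genes. The 30 S phase genes, at a median level of 6.13, had a median SD of 0.12 too. The part of level in the SD was not tested. Tubb4b, a beta-tubulin, was the steadiest at 0.06, and Kif20b, a motor of late cytokinesis, varied most at 0.58, with values from 3.89 to 5.32, followed by Gtse1 at 0.37 and Kif20a at 0.32. For Kif20b the null interval ran from -1.03 to 0.97, which still holds a 2-fold lower level and ends just short of a 2-fold higher one.

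Lists of related genes were set beside the 48. Of 70 other G2 and mitosis genes 34 were higher in null (median -0.03) and 29 in missense (median -0.02), and none passed the test. Racgap1, which acts with Ect2 in cytokinesis, differed by -0.24 in null (SE 0.09, limma adjusted p = 0.458). Of 30 S phase genes 13 were higher in null (median -0.04) and 19 in missense (median 0.03), none passed, and all 30 were lower in the missense-set wild types (median -0.15).

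The next list holds the complexes known to control such promoters. Of 13 listed DREAM and MuvB genes 12 were found, with medians of -0.05 in null and -0.03 in missense, and none passed the test or had an unadjusted p under 0.05. Lin54 was not among the 12. Foxm1 and Mybl2 are also in the list of other G2 and mitosis genes, so the 2 lists share genes. Foxm1 differed by -0.14 (SE 0.16) in null and by -0.29 (SE 0.13, limma adjusted p = 0.902) in missense, and Mybl2, which encodes B-MYB, by -0.16 (SE 0.19) and 0.17 (SE 0.16). The 33 genes with a CHR had a median of -0.03 in null and 0.01 in missense, and the 7 without one -0.01 and 0.02. Genes with no promoter window are left out here. They include Kif20a and Dlgap5, which had the highest (0.55) and lowest (-0.40) null differences of the 48.

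Of 23 cell cycle brakes and p53 targets, 14 were higher in null (median 0.09) and 13 in missense (median 0.06). Eda2r, a TNF receptor family gene and p53 target, rose by 2.63 in missense (SE 0.34, limma adjusted p = 0.0499) and differed by 2.17 in null (SE 0.42, limma adjusted p = 0.101). Cdkn1a, which encodes the CDK inhibitor p21, was at 4.04 and 3.64 in wild type and at 5.23 and 4.50 in null. In the missense set it was at 4.13, 3.62 and 4.21 in wild type and at 5.0, 4.90 and 5.08 in missense. Every mutant sample was above its wild types, with log2 differences of 1.02 (SE 0.27, limma adjusted p = 0.254) and 1.0 (SE 0.22, limma adjusted p = 0.884). The 48 genes had medians of -0.03 and 0.01 in the same samples.

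**Figure D4:**
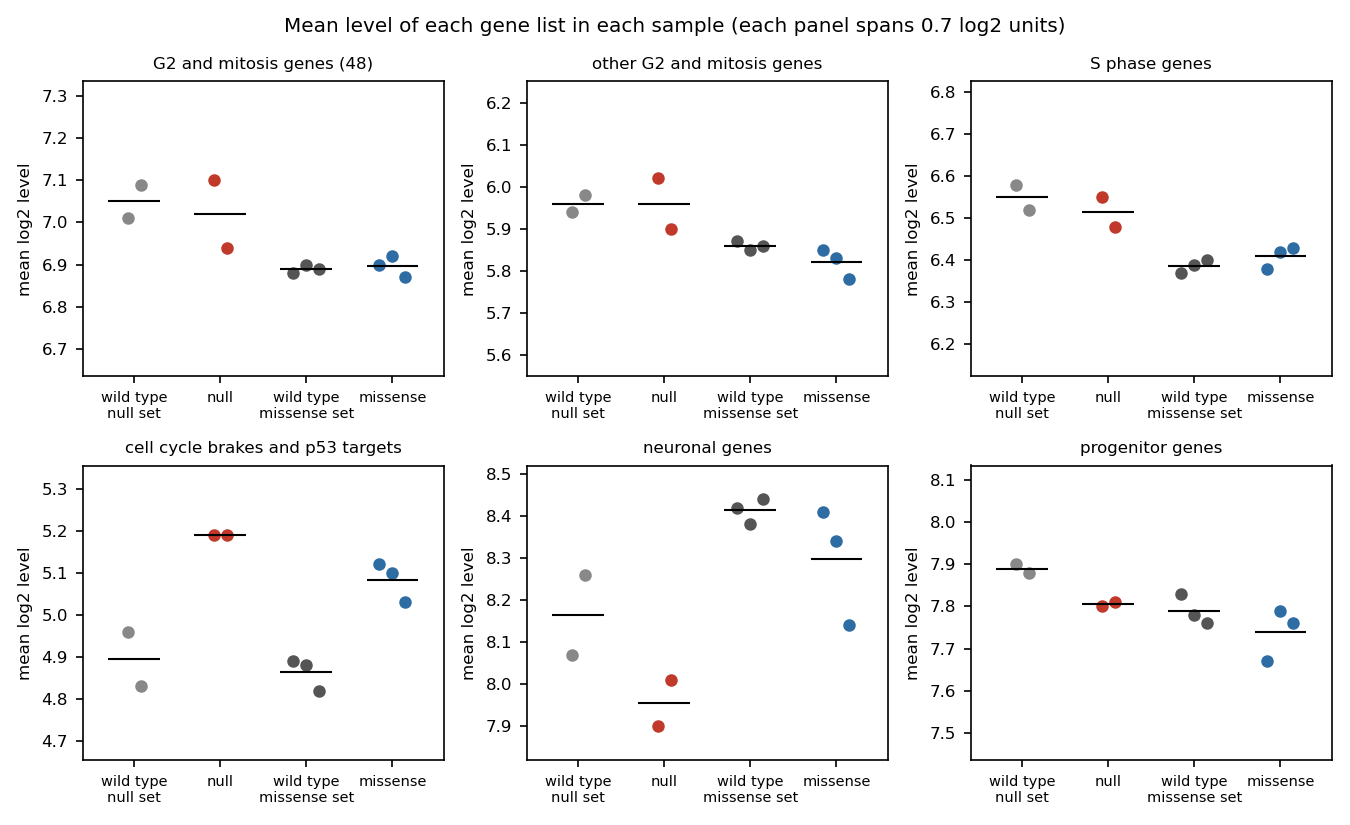
Mean log2 level of 6 gene lists in each sample, by group, with a bar at each group mean and each panel spanning 0.7 log2 units. The 48 genes stand at 7.10 and 6.94 in the null samples, on either side of 7.01 and 7.09 in their wild types.

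Markers of other cell types also differed in level between the groups, although none of those below passed the test, and their part in the values above was not tested. The 8 neuron markers were lower in null for 7 (median -0.22) and in missense for 8 (median -0.12), and higher in the missense set for 8 (median 0.16). Their summed level ran from 3381 to 3876 in wild type and from 2881 to 3145 in null, and from 4021 to 4159 in wild type and from 3386 to 4032 in missense. All 6 microglia markers were higher in null (median 1.01), with a summed level from 49.2 to 53.3 in wild type and 105 in both null samples. In missense 5 of the 6 were higher (median 0.41), with a summed level from 62.6 to 75.8 in wild type and from 81.3 to 98.4 in missense. Between the wild types of the sets, where 46 of the 48 genes were lower in the missense set, all 6 microglia markers were higher there (median 0.48), as were all 5 endothelium markers (median 0.22), and 6 of 9 progenitor markers were lower (median -0.12).

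All 6 mesenchyme markers were higher in null (median 0.64) and in missense (median 0.33), with summed levels from 1349 to 1540 and from 1964 to 2603 in wild type and null. In the missense set their summed levels overlapped, from 1424 to 2349 in wild type and from 1816 to 2429 in missense. The 9 progenitor markers had medians of -0.04 in both, with 2 and 4 higher, the 5 endothelium markers 0.26 and -0.01, and the 8 erythroid markers 0.33 and 0.21, 1 of them at the lowest level of the file in null 1. The summed level of the 48 genes ran from 8475 to 9167 in wild type and from 7997 to 9065 in null, and from 7696 to 7910 in wild type and from 7558 to 8070 in missense.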

How the data were processed

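RNA-seq of telencephalon from 10 mouse samples was deposited by the authors as 1 table of filtered, normalized log2 values per gene and sample. The unit was read from the values, whose back-transformed totals are given with the results. The build GRCm39 is named per the submitters' processing notes. No aligner, counter, strand setting or prior count is named there. From this table, 1 row without a gene name was left out, and limma 3.58.1 in R 4.3.3 was fitted to the 14796 named genes in 4 groups, with a variance trend and Benjamini-Hochberg adjustment over all genes, and a gene was called at an adjusted p under 0.05. The fit leaves 6 residual degrees of freedom. The code was also run on simulated data with independent noise. No outcome of that run is given here, and it bears on no result above. The 48 genes and all lists were chosen with earlier results of these data known. Values in every sample of the comparison were given for the 5 genes of smallest unadjusted p in each comparison with wild types. They were also given for Cdk1, Top2a, Mki67 and Plk1. Outside this rule, null-set values were also given for Ccnb2, Rangap1, Lbr and Psrc1, and missense-set values for Kif11. Up to 3 genes of each other list could be named per comparison. Motifs were searched with Python 3.11.15 in RefSeq windows of GRCm38.p6, and exon overlaps were read from GENCODE on GRCm38, an earlier build than that of the values. Alternatives changed scaling, filtering, variance model, pseudocount, the term for the first number of the titles, and the samples left out.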

Additional observations from a re-analysis of the deposited data

How the results depend on the processing

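None of the 48 genes passed the test in any fit run: 20 fits for null, 20 for missense, 18 for the wild types and 19 for the difference of the alleles, main ones included. At an unadjusted p under 0.05 the counts ran from 1 to 5, 0 to 4, 6 to 11 and 0 to 3. Without a term for the first number of the titles, where both sets of wild types serve both alleles, 36 genes were higher in null (median 0.075) and 9 in missense (median -0.064). In that fit the alleles were compared as null minus missense samples, with no wild type. That value includes any difference between the sets and is not the difference of the alleles given above. In it 42 genes were higher (median 0.127). Median-centred samples gave 17 higher in missense and 1 in the wild types, and sample weights 1 in the wild types. Leaving out 1 sample gave 12 to 33 higher in null (median -0.133 to 0.058), 1 to 8 in the wild types, and 12 to 33 in the difference (median -0.121 to 0.052). Of 806 alternatives of 44 single-gene values, 21 changed sign. The 44 belong to the genes of smallest p in each comparison and, except for the difference of the alleles, to Cdk1, Top2a, Mki67 and Plk1. Many alternatives could not move a difference, such as another variance model or leaving out a sample outside the comparison. The share that changed sign is therefore no measure of robustness. Without the term for the first number, the signs that changed were Plk1 0.012, Top2a 0.083 and Mki67 0.028 in null. In missense they were Top2a -0.031, Mki67 -0.047 and Plk1 -0.085, and in null minus missense Dlgap5 0.068. Mki67 in missense was -0.011 with median-centred and -0.032 with quantile-normalized samples. Leaving out 1 sample, null Top2a ran from -0.141 to 0.09 and Mki67 from -0.227 to 0.098. In missense Cdk1 ran from -0.018 to 0.133, Mki67 from -0.034 to 0.063, Top2a from -0.023 to 0.092 and Plk1 from -0.018 to 0.092, and between wild types Cdk1 ran from -0.135 to 0.062. The cause was not tested. With 2 or 3 samples a group and unknown depth, small differences were not detectable. No paired analysis was possible because the labels give no replicate numbers that groups share.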
